A study of Homo sapiens with 3 samples.

Results

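The genes described here encode the coat and accessory proteins of caveolae, the small flask-shaped pits of the plasma membrane. They were chosen by name and are 7 of the 20344 genes in the files: the caveolins CAV1 and CAV2, the cavins CAVIN1, CAVIN2 and CAVIN3 (listed under these symbols and not under the older PTRF, SDPR and PRKCDBP), and the accessory proteins EHD2 and PACSIN2. All 7 had a row in both files, and each symbol is on 1 row. Their levels and the difference between the libraries were known when they were chosen, so the values below are a description and no test is made of them.

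The study measured messenger RNA by sequencing in A375 cells, an established human melanoma line with mutant BRAF. It has 3 samples, and 2 were used, with 1 library each: the library titled A375-VR, Prop (the A375-VR library below) and the library titled A375, Prop (the A375 library). The remaining sample, titled A375-VR, DMSO, was not used here. The series title concerns propranolol, a blocker of beta-adrenergic receptors, and resistance to vemurafenib, a BRAF inhibitor; the protocol text gives propranolol at 20 µM for 24 h, with DMSO as vehicle. The labels conflict for the A375 library: its title and cell line field name A375, while the protocol names only A375-VR cells in DMSO or propranolol. Cell line, drug, culture and library preparation therefore cannot be told apart in any difference below. How the A375-VR line was derived, and whether it is 1 clone, is not given in the sources used here.

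Caveolae form where caveolin-1, a hairpin protein held in the inner leaflet of the membrane, assembles with cholesterol and recruits cavin-1, which builds the outer coat. Caveolin-2 joins caveolin-1 in mixed oligomers and needs it to leave the Golgi. Cavin-2 and cavin-3 bind into the cavin coat. EHD2 is an ATPase that sits at the neck and holds the pit at the surface, and PACSIN2 (syndapin-2) is an F-BAR protein that bends the neck membrane. The pits buffer membrane tension by flattening, and they are abundant in endothelial cells, adipocytes and muscle.

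CAV1 and CAV2 are neighbours on chromosome 7 and both had lower values in the A375-VR library, so the promoter windows of this pair are printed. The sequences are from RefSeq and run from 250 bases before to 50 bases after the RefSeq start. The RefSeq table is on build GRCh38.p14, and each sequence was found at 1 place in GRCh37, the build of the alignments, whose positions are given here. The CAV1 window is chr7:116164813-116165112 and the CAV2 window is chr7:116139542-116139841, both on the plus strand, and the starts lie 25271 bp apart. In GENCODE release 44 lifted to GRCh37, the gene start lies 15 bp from the RefSeq start for CAV1 and 212358 bp for CAV2. The letters at the GENCODE start of CAV2 are therefore not covered here. Capitals mark GGGCGG on either strand, the letters of the SP1 motif (GC box).
CAV1: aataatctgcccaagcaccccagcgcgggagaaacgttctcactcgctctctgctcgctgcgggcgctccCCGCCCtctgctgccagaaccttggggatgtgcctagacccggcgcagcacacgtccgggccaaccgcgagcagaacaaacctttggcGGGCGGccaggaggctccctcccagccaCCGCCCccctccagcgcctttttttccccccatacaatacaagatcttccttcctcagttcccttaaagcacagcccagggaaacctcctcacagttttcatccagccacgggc
CAV2: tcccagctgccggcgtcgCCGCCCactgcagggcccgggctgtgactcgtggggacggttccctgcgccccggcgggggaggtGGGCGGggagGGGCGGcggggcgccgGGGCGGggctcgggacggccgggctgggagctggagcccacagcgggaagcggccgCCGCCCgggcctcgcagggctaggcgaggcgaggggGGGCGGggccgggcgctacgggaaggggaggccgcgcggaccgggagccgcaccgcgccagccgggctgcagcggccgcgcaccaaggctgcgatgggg
The CAV1 window held 3 matches to GGGCGG and the CAV2 window 6, and 44.95% of all 35116 promoter windows in the table held at least 1. The GC content was 62.3% for CAV1 and 82.7% for CAV2, against a median of 58.7% over all windows. The other 8 motifs searched on both strands were absent from these letters: TEAD (GGAATG, in 14.0% of all windows), AP-1 (TGANTCA, 7.71%), E-box (CACGTG, 7.26%), CRE core (TGACG, 24.6%), SREBP (TCACNCCAC, 1.13%), FOXO (TGTTTAC, 3.42%), TATA box (TATAAA, 11.5%) and CCAAT (34.6%). A match is a run of letters and not a measured binding site, and its absence here covers 300 bases of each gene. GGGCGG was not confined to this pair: of the 5 caveola genes with a window, 3 held it. The window of EHD2, which had nearly equal values in the 2 libraries, held 1 match and had a GC content of 71%.

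The library totals behind the scaling, worked out from the files, were 16438482 in the A375-VR library and 17811339 in the A375 library. The deposited unit is FPKM, in which reads or fragments are divided by gene length and by the library total. Levels can therefore be compared between genes only as far as the length used fits each gene. That length is not stated in the sources used here. Worked out from the FPKM values, it was 4082 bp for CAV1 and 6926 bp for CAV2. Differences are of log2(FPKM + 1), the A375-VR library minus the A375 library, and are called 2-fold at a size of at least 1. The filter asked for 1 FPKM or more in either library, which 10761 genes met. Of these, 0.613% were 2-fold lower in the A375-VR library, 3.14% were 2-fold higher, 3.75% were 2-fold apart in either direction, and 60.3% had a difference above 0, with a median of 0.10. Folds are plain ratios of FPKM. Their 95% intervals (exact Clopper-Pearson) come from recovered reads, cover counting error only, and say nothing of the spread between cultures. Such an interval lay wholly below 1 for 26.4% of the genes and wholly above 1 for 43.6%, so an interval clear of 1 is common in these libraries.

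Of the 7 caveola genes, 6 passed the filter, 3 of them with a difference below 0 and 3 above 0, where 60.3% of all genes were above 0. Both caveolins and CAVIN1 were lower in the A375-VR library, CAVIN3 was higher, and EHD2 and PACSIN2 had nearly equal values. A single gene, CAV1, was 2-fold lower, none was 2-fold higher, and the median difference of the 6 was -0.29. With 6 genes chosen with these results known, nothing is read from that count beside the 0.613% over all genes.

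**Figure D1:**
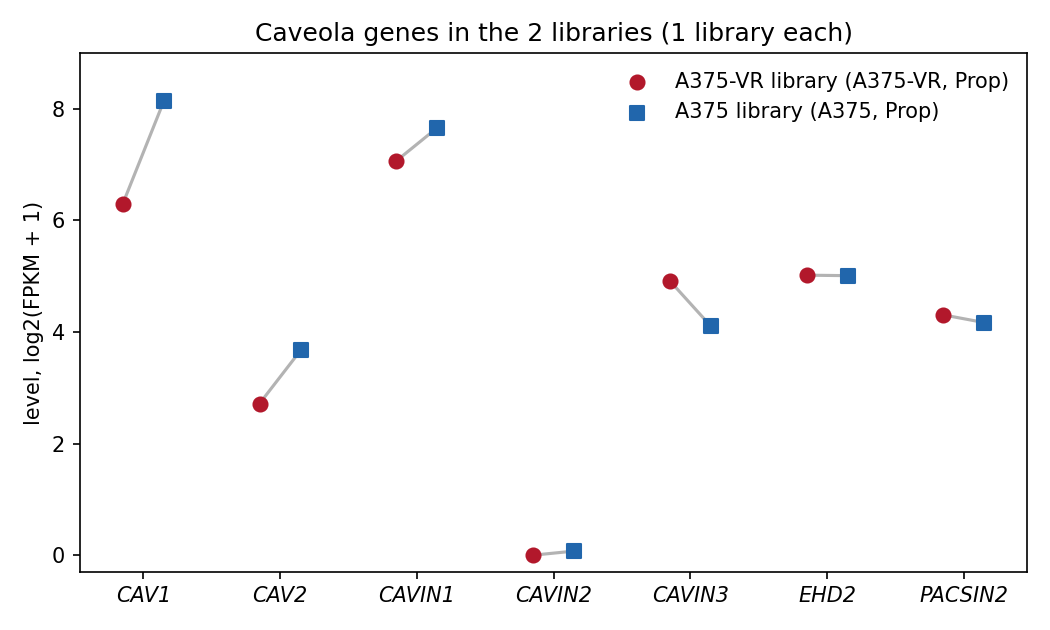
Level of each caveola gene, as log2(FPKM + 1), in the A375-VR library (red circles, left of each pair) and the A375 library (blue squares, right), 1 library each. CAV1 had 77.7 FPKM in the A375-VR library and 281 FPKM in the A375 library, while EHD2 had 31.4 FPKM in the A375-VR library and 31.2 FPKM in the A375 library.

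CAV1 (Entrez 857), the structural protein of the pit, had 77.7 FPKM in the A375-VR library and 281 FPKM in the A375 library. The ratio was 0.277 (0.268 to 0.285), from 5212 recovered reads in the A375-VR library and 20413 in the A375 library, and the difference was -1.84. CAV1 was the gene with the 6th lowest difference of the 10761. Its level stood at percentile 97.4 of all genes in the A375-VR library and at percentile 99.4 in the A375 library. CAV1 was thus among the more abundant transcripts also in the library where it was lower. In bulk RNA, fewer cells with a transcript and less of it per cell cannot be told apart. CAV1 spans 36186 bp on chromosome 7, from 116165048 to 116201233 on the plus strand of GRCh37, with 4 merged exon blocks (GENCODE release 44 lifted to GRCh37).

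CAV2 (Entrez 858), the partner of caveolin-1 in its oligomers, had 5.58 FPKM in the A375-VR library and 11.7 FPKM in the A375 library. The ratio was 0.475 (0.432 to 0.522), from 635 recovered reads in the A375-VR library and 1447 in the A375 library. Its difference of -0.95 lay just short of the 2-fold call, because the added 1 weighs on a gene of this level; with a pseudocount of 0.1, CAV2 was called. CAV2 was far below CAV1 in both libraries. The ratio of CAV1 to CAV2 was 13.9 in the A375-VR library and 23.9 in the A375 library. The intervals of the folds of CAV1 and CAV2 did not overlap.

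Of 11 neighbours listed on the same stretch of chromosome 7, from FOXP2 to CTTNBP2, 5 passed the filter. None of the 5 was 2-fold apart, as 3.75% of all genes were, and their differences ran from -0.25 to 0.20 with a median of 0.01. TES, a LIM-domain protein of focal adhesions and the closest listed gene before CAV2, had 19.6 FPKM in the A375-VR library and 23.4 FPKM in the A375 library, a ratio of 0.836 (0.779 to 0.897). MET, the receptor of hepatocyte growth factor and the next listed gene after CAV1, had 29.3 FPKM in the A375-VR library and 28.8 FPKM in the A375 library, a ratio of 1.02 (0.973 to 1.07). MDFIC, named for a domain it shares with an inhibitor of MyoD-family transcription factors, had a ratio of 1.16 (1.07 to 1.26). Among the listed genes of this stretch, the 2 with the largest differences in size were CAV1 and CAV2. The number of copies of this region in either line was not measured here.

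**Figure D2:**
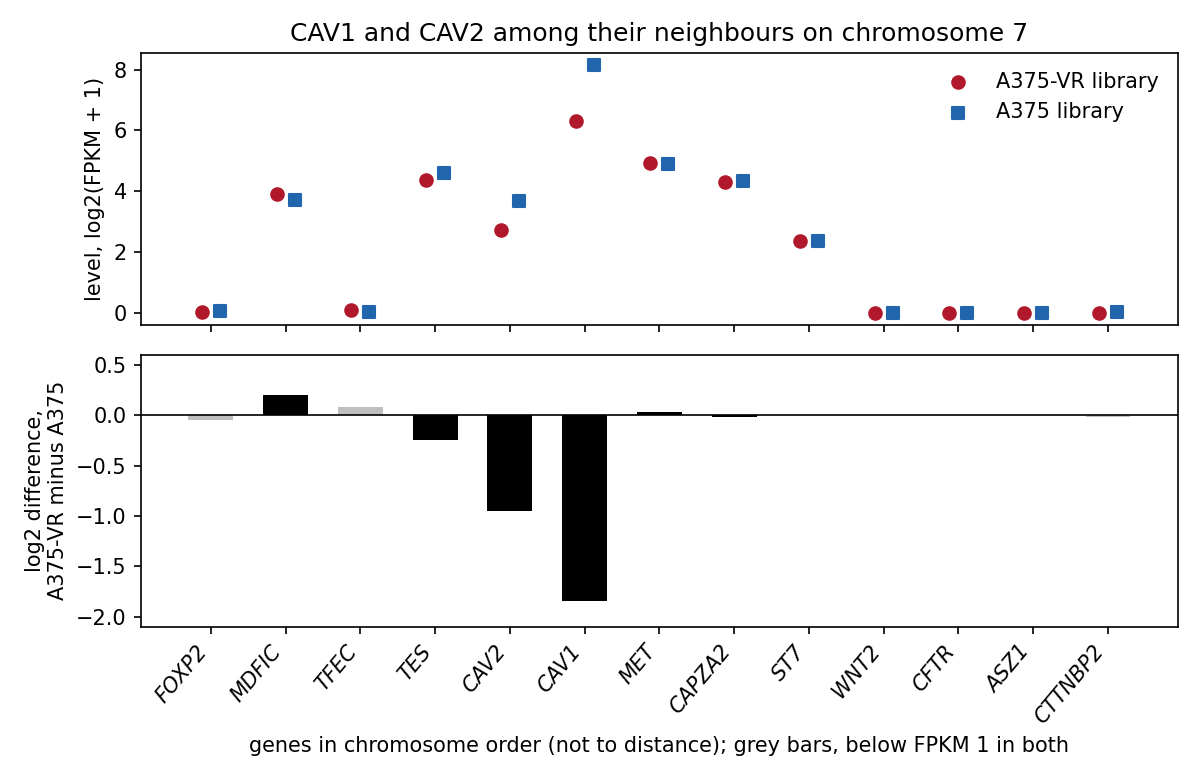
CAV1 and CAV2 among 11 listed neighbours in chromosome order (spacing not to distance): level as log2(FPKM + 1) in the A375-VR library (red circles) and the A375 library (blue squares) above, and the difference between them below, with grey bars for genes under 1 FPKM in both libraries. The bars of CAV1 (-1.84) and CAV2 (-0.95) stand out, and the bars of TES (-0.25), MET (0.03) and MDFIC (0.20) are short.

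The cavins went in different directions. CAVIN1 (Entrez 284119), which builds the coat and without which caveolae do not form, had 133 FPKM in the A375-VR library and 202 FPKM in the A375 library. The ratio was 0.660 (0.642 to 0.678), from 8368 recovered reads in the A375-VR library and 13745 in the A375 library, and the difference of -0.60 was not a 2-fold one. It lies on chromosome 17 from 40554467 to 40575274 on the minus strand. CAVIN3 (Entrez 112464), a cavin that binds protein kinase C delta and loads onto the coat through cavin-1, was the caveola gene with the largest difference upward. It had 29.2 FPKM in the A375-VR library and 16.2 FPKM in the A375 library, a ratio of 1.80 (1.53 to 2.12), from 401 recovered reads in the A375-VR library and 241 in the A375 library. Its difference of 0.81 was not a 2-fold one and ranked 589th from the highest of the 10761. CAVIN3 lies on chromosome 11 from 6340176 to 6341762 on the minus strand. An unnamed long noncoding RNA gene on the opposite strand shares 571 bp of its exons, and the use of strand in counting is not given in the sources used here, so reads of the 2 cannot be told apart.

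CAVIN2 (Entrez 8436), which shapes caveolar membrane in endothelial and fat cells, was close to absent. It had 0 recovered reads in the A375-VR library and 3 in the A375 library, where its level was 0.0522 FPKM. A count of 0 in the A375-VR library allows a level of up to 0.0565 FPKM (3 reads), so no fold is given. CAVIN2 failed the filter and is left out of the counts above.

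EHD2 and PACSIN2, the proteins of the neck, differed least. EHD2 (Entrez 30846, chromosome 19 from 48216679 to 48246391) had 31.4 FPKM in the A375-VR library and 31.2 FPKM in the A375 library. Its ratio of 1.01 had an interval of 0.947 to 1.07, which spans 1, with 2025 reads in the A375-VR library and 2181 in the A375 library. PACSIN2 (Entrez 11252) lies on chromosome 22 from 43231418 to 43411155 on the minus strand. It had 18.8 FPKM in the A375-VR library and 17.0 FPKM in the A375 library, a ratio of 1.11 (1.03 to 1.19). Its difference was 0.14, beside a median of 0.10 over all genes. The neighbouring gene ARFGAP3 shares 155 bp of exon with PACSIN2 on the same strand.

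**Figure D3:**
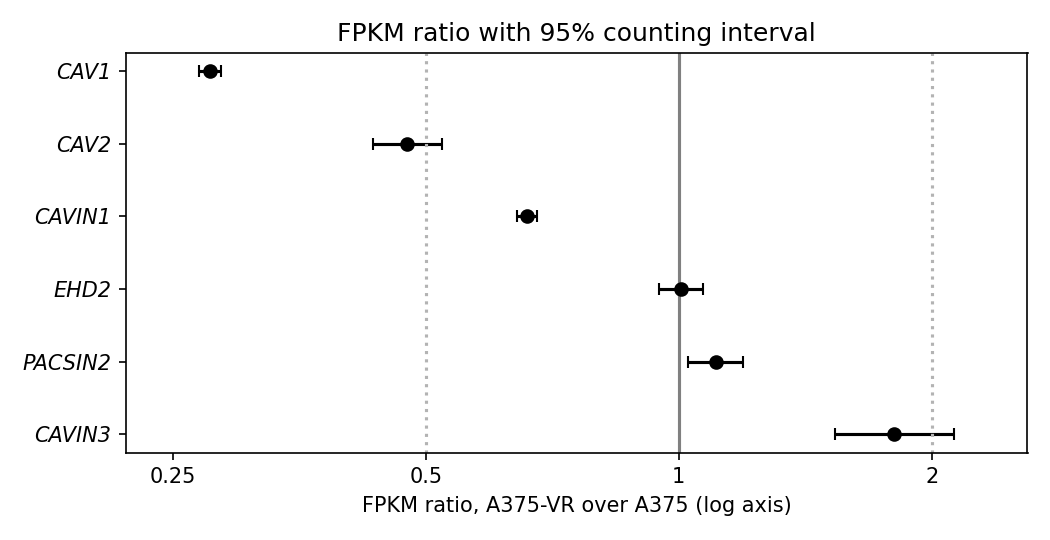
FPKM ratio of the A375-VR library over the A375 library (log axis) for the 6 caveola genes past the filter, with 95% exact Clopper-Pearson intervals from recovered reads, which cover counting error only. The ratios run in order from 0.277 for CAV1 to 1.80 for CAVIN3; dotted lines mark ratios of 0.5 and 2, and the interval of EHD2 spans 1.

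These unequal differences changed the order and the proportions of the caveola transcripts. In the A375-VR library CAVIN1 was the highest, followed by CAV1, EHD2, CAVIN3, PACSIN2, CAV2 and CAVIN2. In the A375 library the order was CAV1, CAVIN1, EHD2, PACSIN2, CAVIN3, CAV2 and CAVIN2. In each order 1 pair of neighbours could not be told apart by counting error. In the A375-VR library these were EHD2 (30.05 to 32.8 FPKM, exact Poisson interval) and CAVIN3 (26.4 to 32.2 FPKM). In the A375 library they were PACSIN2 (16.1 to 17.9 FPKM) and CAVIN3 (14.2 to 18.4 FPKM). The exchange of CAV1 and CAVIN1 at the top was larger than that error: the ratio of CAV1 to CAVIN1 was 0.584 in the A375-VR library and 1.39 in the A375 library.

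Against CAVIN3, CAV1 stood at a ratio of 2.66 in the A375-VR library and 17.3 in the A375 library. Against EHD2 it stood at 2.47 in the A375-VR library and 8.99 in the A375 library. The ratio of EHD2 to PACSIN2, by contrast, was 1.67 in the A375-VR library and 1.84 in the A375 library. Summed over the 7 genes, the level was 296 FPKM in the A375-VR library and 559 FPKM in the A375 library. CAV1 made up 26.3% of that sum in the A375-VR library and 50.3% in the A375 library, and CAVIN1 made up 44.99% in the A375-VR library and 36.1% in the A375 library. Without CAV1 the sums were 218 FPKM in the A375-VR library and 278 FPKM in the A375 library.

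**Figure D4:**
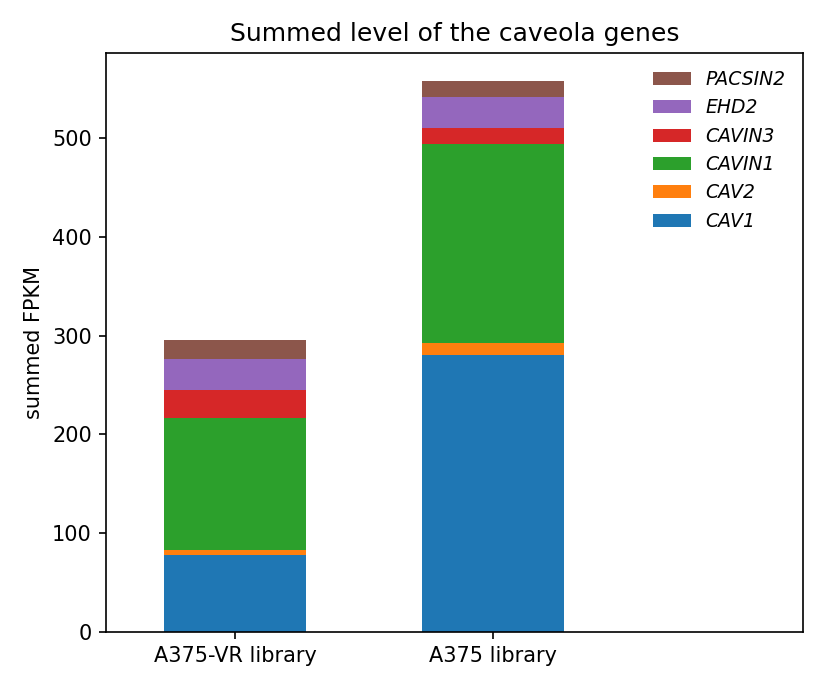
Summed FPKM of the caveola genes in the A375-VR library (left) and the A375 library (right), stacked by gene; CAVIN2 is left out because its level is too low to draw. The bars reach 296 FPKM in the A375-VR library and 559 FPKM in the A375 library, and the CAV1 segment is 77.7 FPKM in the A375-VR library and 281 FPKM in the A375 library.

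Related members of the same families that passed the filter had differences from -0.40 to 0.75. Of 7 such genes, 4 passed the filter and none was 2-fold apart, where 3.75% of all genes were. The median of the 4 was -0.21, or -0.32 with centring or the trimmed mean. EHD3, an EHD ATPase of endosomes, had 20.6 FPKM in the A375-VR library and 11.9 FPKM in the A375 library, a ratio of 1.73 (1.60 to 1.88). EHD1, which acts in endosome recycling, had a ratio of 0.745 (0.702 to 0.790), and EHD4 of 0.822 (0.775 to 0.872). The EHD genes thus had values on both sides of equal, with EHD2 between them. CAV3, the muscle caveolin, was listed at 0 in both libraries. CAVIN4, the muscle cavin, had 9 recovered reads in the A375-VR library and 18 in the A375 library and did not pass the filter. PACSIN1, the neuronal syndapin, was also listed at 0 in both.

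Of 12 listed genes whose proteins cut, anchor, phosphorylate or bind caveolar proteins, 11 passed the filter. None of the 11 was 2-fold apart, where 3.75% of all genes were, and nothing is read from so small a list. The differences of the 11 went both ways, from -0.31 to 0.36, with a median of -0.003. Dynamin-1, encoded by DNM1, a GTPase that severs membrane necks, had 5.94 FPKM in the A375-VR library and 4.42 FPKM in the A375 library, a ratio of 1.34 (1.23 to 1.47). FLNA, filamin A, which ties caveolae to actin filaments, had 113 FPKM in the A375-VR library and 139 FPKM in the A375 library, a ratio of 0.808 (0.793 to 0.823). SRC, a kinase that phosphorylates caveolin-1, had a ratio of 1.22 (1.12 to 1.33). The endothelial gene NOS3, whose product binds caveolin-1, was at 0.0409 FPKM in the A375-VR library and listed at 0 in the A375 library.

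Other routes of uptake were also listed. The 3 genes of flotillins and stomatin, proteins of membrane rafts outside caveolae, all had differences above 0, where 60.3% of all genes did, with a median of 0.24 that was 0.12 with centring or the trimmed mean. FLOT2 had 31.4 FPKM in the A375-VR library and 21.3 FPKM in the A375 library, a ratio of 1.47 (1.27 to 1.70). FLOT1 had a ratio of 1.11 (1.00 to 1.23) and STOM of 1.18 (1.10 to 1.27). Of 30 genes of the clathrin coat and its adaptors, 25 passed the filter, 18 with a difference above 0 (72.0%, beside 60.3% of all genes) and 7 below. Their median was 0.22, and it was 0.08 with the filter at FPKM 5, 0.10 without the filter and 0.13 with centring. A single one of the 25 was 2-fold higher, where 3.14% of all genes were, so nothing is read from that count. It was SNX9, a sorting nexin that works with dynamin at clathrin pits. SNX9 had 19.8 FPKM in the A375-VR library and 9.15 FPKM in the A375 library, a ratio of 2.17 (1.98 to 2.37). SNX9 was no longer called with the values centred on the median ratio or scaled by a trimmed mean. Of 11 genes of clathrin-independent uptake, 10 passed and none was 2-fold apart, where 3.75% of all genes were. The median of the 10 was -0.13, or -0.24 with centring or the trimmed mean. Among these, RHOA, a GTPase of actin fibres, had a ratio of 0.791 (0.767 to 0.815), SH3GLB1, an endophilin, of 1.33 (1.23 to 1.44), and SNX33, a sorting nexin, of 1.37 (1.21 to 1.55).

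**Figure D5:**
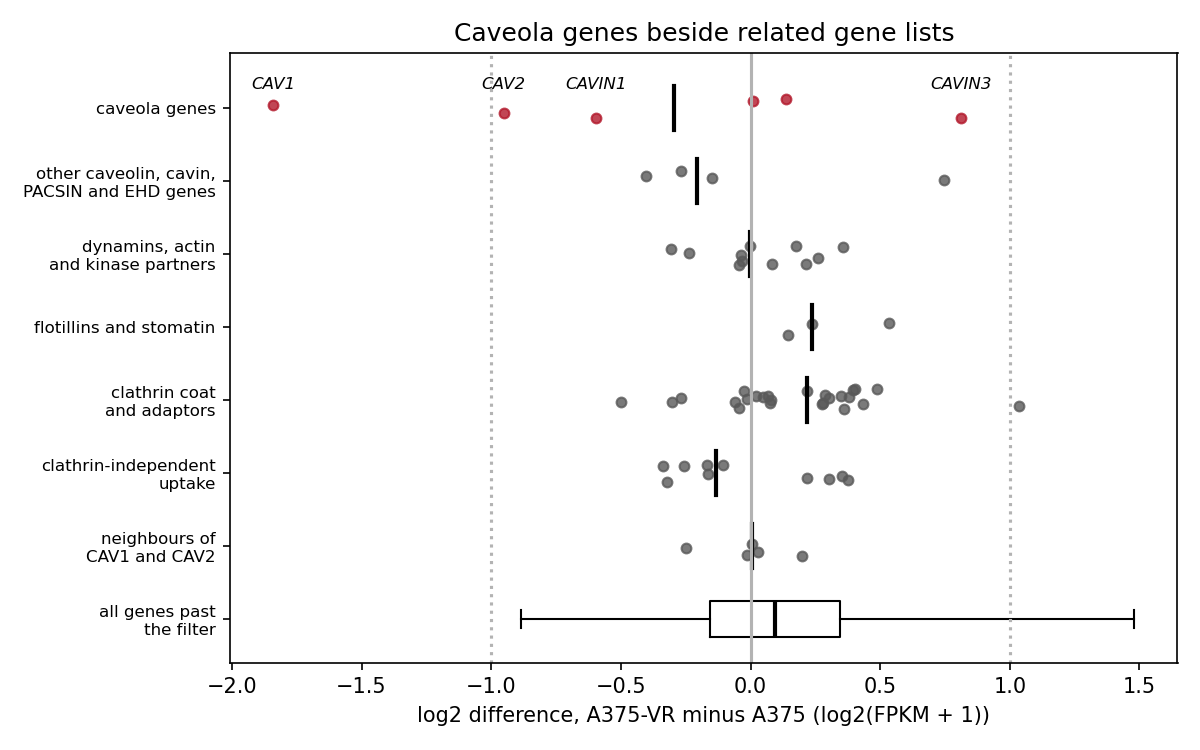
Difference of log2(FPKM + 1), the A375-VR library minus the A375 library, for each gene past the filter in the caveola genes (red) and 6 related lists (grey); black ticks are medians and vertical scatter has no meaning. The box of all 10761 genes spans -0.16 to 0.35 with whiskers at percentiles 1 and 99 (-0.89 and 1.48); CAV1 and CAV2 lie below the lower whisker.

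The genes with the pattern most like that of a caveola gene were taken as the 3 nearest in log2(FPKM + 1) over the 2 libraries. No gene was close to CAV1: the nearest was CDC20 at a distance of 0.65, with 116 FPKM in the A375-VR library and 225 FPKM in the A375 library, followed by TUBA1B (0.77) and NCL (0.82). CAV2 had near neighbours, SH3BP4 at 0.05, TONSL at 0.07 and CCNA1 at 0.10. CAVIN1 also did, SET at 0.04, EIF4H at 0.07 and CSE1L at 0.07. With 2 libraries, such likeness reflects a similar level and ratio and nothing more.

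Markers of cell types rich in caveolae were low in both libraries, as far as the listed genes show. Of 6 endothelial markers 1 passed the filter, and their summed level was 2.17 FPKM in the A375-VR library and 0.755 FPKM in the A375 library; the one that passed, KDR, had 1.84 FPKM in the A375-VR library and 0.394 FPKM in the A375 library. None of 5 adipocyte markers passed, with summed levels of 0.436 FPKM in the A375-VR library and 0.0994 FPKM in the A375 library, and ADIPOQ and LEP were at 0 in both. Of 6 muscle markers 1 passed, with sums of 1.51 FPKM in the A375-VR library and 0.666 FPKM in the A375 library, and MYOD1 and MYOG were at 0 in both. Of 5 fibroblast markers 1 passed, with sums of 5.47 FPKM in the A375-VR library and 3.48 FPKM in the A375 library. These sums rest on few reads, and the endothelial and fibroblast sums in large part on 1 gene each. Without KDR the endothelial sum was 0.331 FPKM in the A375-VR library and 0.361 FPKM in the A375 library. Without LUM the fibroblast sum was 0.573 FPKM in the A375-VR library and 0.491 FPKM in the A375 library. The adipocyte sum came from 12 recovered reads in the A375-VR library and 5 in the A375 library, and the muscle sum from 22 in the A375-VR library and 14 in the A375 library. Their part in the values of the caveola genes was not tested. Keratinocyte markers passed in 2 of 4, with sums of 59.5 FPKM in the A375-VR library and 47.8 FPKM in the A375 library, nearly all from KRT10. No leukocyte marker of 5 passed.

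Melanocyte markers were mixed. Of 8, 3 passed the filter, and the sum over all 8 was 166 FPKM in the A375-VR library and 75.8 FPKM in the A375 library. Without SOX10 the sum was 16.7 FPKM in the A375-VR library and 10.5 FPKM in the A375 library. SOX10, a neural crest transcription factor, had 150 FPKM in the A375-VR library and 65.3 FPKM in the A375 library, and S100B had 12.6 FPKM in the A375-VR library and 3.72 FPKM in the A375 library. TYR, the enzyme that starts melanin synthesis, was at 0 in both, and MLANA, DCT and TYRP1 were below 0.1 FPKM in both. PMEL did not pass the filter, at 0.530 FPKM in the A375-VR library and 0.158 FPKM in the A375 library. MITF, the regulator of the melanocyte lineage, had 3.47 FPKM in the A375-VR library and 6.47 FPKM in the A375 library. SOX10 and S100B were thus higher, and MITF lower, in the library where CAV1 was lower, and their part in the result was not tested.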

How the data were processed

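RNA was sequenced in 3 samples, of which 2 had files that were used. Per the series design text, stranded TruSeq mRNA libraries were read as 150 bp pairs on a HiSeq 2000 and aligned to GRCh37 with TopHat 1.3.3. How reads were counted, on which annotation and with which filters is not stated in the series text or the labels. The authors deposited FPKM for each gene and library, zeros included. FPKM is scaled over the whole library, so a difference in abundant genes moves the values of the rest.

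Computed here were log2(FPKM + 1), the difference between the libraries, plain ratios, counts and medians (Python 3.11.15, numpy 2.4.6, scipy 1.17.1). With 1 library per group no test was possible. Reads were recovered as the smallest whole numbers that give a gene's FPKM in both libraries at a whole length (tolerance 1e-08). The ratio of the totals is exact from genes with equal reads. Their common factor of 3 is the largest of 12 tried at which gene lengths stay whole: 70.4% of genes, against 75.7% at 1, 37.6% at 2 and 35.0% at 6. True reads can be multiples of those given: CAVIN3 had a recovered length of 836 bp, and GENCODE gives 1557 bp of exon. Steps were tested on simulated data.

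The members and lists were chosen with earlier results of these data known. Named genes are all 7 caveola genes; of each related list, members 2-fold apart or else up to 3 with the largest difference; and the 3 genes nearest to CAV1, CAV2 and CAVIN1. Cell type markers, family members at or near 0 and NOS3 are outside this rule and were named after their values were seen. The alternatives tried were a pseudocount of 0.1, no filter, a filter at FPKM 5, rescaling to a sum of 1000000, centring on the median ratio and a trimmed mean of log ratios.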

Additional observations from a re-analysis of the deposited data

How the results depend on the processing

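CAV1 was 2-fold lower in the A375-VR library under all 6 alternatives (differences from -1.96 to -1.83), and CAVIN1 stayed below 0 (-0.71 to -0.58) and CAVIN3 above 0 (0.70 to 0.86) under each, neither 2-fold. The alternatives that change only the filter cannot alter the difference of a single gene, so for single genes only the pseudocount and the scalings bear on this. CAV2 ranged from -1.06 to -0.95, so the count of caveola genes 2-fold lower was 2 with a pseudocount of 0.1, after rescaling to a sum of 1000000, after centring and with the trimmed mean. EHD2 was at 0.01 and turned to -0.10 under both centring and the trimmed mean. The median of the caveola genes was -0.073 without the filter, where CAVIN2 enters, -0.41 with centring and -0.41 with the trimmed mean; under the last pair the shift is that of the scaling itself, 0.11 and 0.12 on the log2 scale, which brings the median of all genes from 0.10 to -0.00. Over all genes, those 2-fold lower numbered 140 with a pseudocount of 0.1, 150 after rescaling, 101 after centring and 101 with the trimmed mean, against 66 as reported; those 2-fold higher numbered 689 with the pseudocount of 0.1 and 802 after rescaling, against 338. Under both, the pseudocount weighs less against each value. After rescaling, the filter of 1 was applied to the larger rescaled values, so genes below 1 FPKM could also enter. The counts after rescaling are therefore over a different set of genes from the 10761, and the parts of pseudocount and filter were not separated. The small medians of the dynamin, actin and kinase list and of the chromosome 7 neighbours have no stable sign. No paired analysis was possible because each group has 1 library and the labels give no replicate numbers. Depth limits CAVIN2, and the lack of replicates limits every difference.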
